A study of Mus musculus with 12 samples.

Results

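The T cell receptor (TCR) complex and the first steps of its signalling were followed through 9 genes: the CD3 chains Cd3d, Cd3e and Cd3g, the zeta chain Cd247, the TCR-associated adaptor Trat1, the coreceptor Cd4, the kinases Lck and Zap70, and the adaptor Lat. They were found by gene name among 21337 genes named on the arrays. The 9 genes have 15 probes, 14 named by the current symbol and 1 for Cd247 under its older name 4930549J05Rik. Each gene was represented by its brightest probe. That probe was well above background on all 12 arrays for every one of the 9 genes, and no spot of theirs was saturated, so all 9 entered the test of 15532 features.

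The RNA came from regulatory T cells (Treg), CD4 T cells that restrain immune responses, in 4 groups of 3 one-colour arrays. All mice were reporter mice on the C57BL/6 background, and their ages are not given in the labels. VERT-X mice, in which Il10 drives EGFP, and FoxP3-EGFP mice, in which Foxp3 drives EGFP, carried subcutaneous MC38 colon carcinoma for 2 weeks, and tumours were pooled before the cells were sorted. Treg of VERT-X tumours were sorted by CD25 and CD120b and split into IL10+ and IL10- fractions, whereas EGFP marked the Treg of FoxP3-EGFP mice, taken from their tumours (total tumour Treg) or, in mice without a tumour, from the spleen. A reporter strain and its Treg gate therefore cannot be told apart. Every sort also required surface CD3 and CD4, the proteins that several of the 9 genes encode. Replicates stand for separate experiments according to the series' design text, which does not say what a shared replicate number marks.

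The TCR binds peptide on an MHC molecule but has no enzyme of its own. The CD3 and zeta chains carry its signal into the cell on tyrosine motifs. Lck, held at the coreceptor CD4, phosphorylates these motifs, Zap70 docks on them and then phosphorylates Lat, and Lat gathers the enzymes and adaptors that act further downstream. Trat1 encodes TRIM, a small transmembrane adaptor that associates with the TCR. In Treg, TCR signalling is needed both for their development and for their suppressive function.

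Cd3g, Cd3d and Cd3e lie next to each other on chromosome 9, at 44969572 to 44980431, 44981769 to 44987052 and 44998735 to 45009663 (GRCm38.p6), and the starts of Cd3g and Cd3d are 1355 bases apart on opposite strands. Their promoters are shown because these neighbours behaved differently across the arrays, and the Trat1 promoter because Trat1 gave the lowest adjusted p of the 9 genes in each comparison with spleen. Each sequence is from RefSeq (GRCm38.p6), 5′ to 3′ on the strand of the gene, from 250 bases before to 50 bases after the start. Capitals mark matches, on either strand, to motifs of factor families known from T cells. ETS factors were searched as GGAAGT and RUNX factors as TGTGGT. The E-box was searched as CACCTG, the motif of TCF and LEF factors as CTTTGA, and that of the zinc finger family of Gata3 as AGATAA. No matches overlap each other in these promoters.
Cd3g, chr9:44980382-44980681, minus strand: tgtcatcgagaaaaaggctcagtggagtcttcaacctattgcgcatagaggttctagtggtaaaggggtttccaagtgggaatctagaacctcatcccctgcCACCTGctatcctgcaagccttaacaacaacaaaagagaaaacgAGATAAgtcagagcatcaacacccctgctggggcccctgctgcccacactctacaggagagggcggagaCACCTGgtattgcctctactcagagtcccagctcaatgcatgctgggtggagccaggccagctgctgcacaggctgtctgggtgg
Cd3d, chr9:44981536-44981835, plus strand: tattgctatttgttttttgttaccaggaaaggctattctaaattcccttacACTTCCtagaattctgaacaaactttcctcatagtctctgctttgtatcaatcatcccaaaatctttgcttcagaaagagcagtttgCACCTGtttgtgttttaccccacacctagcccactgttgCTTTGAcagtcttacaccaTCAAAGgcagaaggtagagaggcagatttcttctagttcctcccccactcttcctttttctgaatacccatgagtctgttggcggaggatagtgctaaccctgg
Cd3e, chr9:45009562-45009861, minus strand: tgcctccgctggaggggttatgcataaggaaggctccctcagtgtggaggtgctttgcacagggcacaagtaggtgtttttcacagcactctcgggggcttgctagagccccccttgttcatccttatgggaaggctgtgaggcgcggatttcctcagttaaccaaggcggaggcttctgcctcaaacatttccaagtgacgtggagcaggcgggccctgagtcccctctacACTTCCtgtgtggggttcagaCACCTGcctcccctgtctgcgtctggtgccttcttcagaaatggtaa
Trat1, chr16:48772013-48772312, minus strand: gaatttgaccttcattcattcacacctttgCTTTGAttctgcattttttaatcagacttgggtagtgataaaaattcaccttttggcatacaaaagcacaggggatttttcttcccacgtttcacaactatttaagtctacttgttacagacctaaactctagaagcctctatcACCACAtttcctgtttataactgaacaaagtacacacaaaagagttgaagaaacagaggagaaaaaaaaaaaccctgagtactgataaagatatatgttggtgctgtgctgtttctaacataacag

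Cd3g, Cd3d and Cd3e each hold CACCTG, Cd3d and Cd3e also GGAAGT, Cd3g alone of these 4 AGATAA, and Trat1 holds TGTGGT and CTTTGA but not CACCTG or GGAAGT. Promoter sequences were at hand for 8 of the 9 genes, with 11 starts in all. CACCTG was found in 8 of these 11, GGAAGT in 6, TGTGGT in 4, CTTTGA in 4 and AGATAA in 1. Among 32851 mouse promoters of the same length the shares were 20.2%, 23.8%, 16.8%, 16% and 11.2%. These matches describe the letters in a window and are no evidence of binding.

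Levels below are log2 of the processed spot signal after division by the 75th percentile of each array, and all differences are on that log2 scale. They compare groups at 1 probe and do not rank genes against each other. Between 42.2% and 65.4% of probes were well above background per array, and the 75th percentile of the signal ran from 98.9 to 645.2. Of the 8 Treg markers, Foxp3 has 1 probe, which read 2.55 to 4.57 on the 6 VERT-X arrays but did not clear the background on the 6 FoxP3-EGFP arrays, at -6.62 to -5.83. Arrays that stood apart were spleen replicate 2 and replicate 1 of both VERT-X fractions. Spleen replicate 2 read -0.94 for the Treg marker Ctla4 against 3.06 and 3.25 on the other spleen arrays, and Il2ra was not well above background on it. The 2 VERT-X arrays had the lowest of limma's array weights (0.26 for IL10- and 0.21 for IL10+). Arrays lay on 4 slides: all spleen arrays with total tumour replicate 3 on slide 2, IL10+ replicate 1 with total tumour replicates 1 and 2 on slide 1, all IL10- arrays with IL10+ replicate 2 on slide 3, and IL10+ replicate 3 on slide 4.

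The comparison of total tumour with spleen Treg, both from FoxP3-EGFP mice, asked how Treg of a tumour differ from Treg of a lymphoid organ. Trat1 fell in the tumour, and it was the 1 of 9 genes called at an adjusted p under 0.05. Among all features tested 43% were called, 22.4% lower and 20.6% higher. The other 8 genes, which did not pass, differed by -1.10 (Lat) to 0.27 (Zap70). The median difference of the 9 genes was -0.43, against -0.07 over all features. The groups did not overlap for 6 of the 9 genes, all lower in tumour, and the same held for 35.9% of all features. The call of Trat1 was made whichever array was left out, but without IL10+ replicate 1, which enters through the shared estimate of spread, Cd247 (adjusted p = 0.0423) and Lat (adjusted p = 0.0437) passed too. The calls over all features then went from 6680 to 7313. In bulk samples, fewer cells of a type and less RNA per cell cannot be told apart.

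In IL10+ tumour Treg 4 of the 9 genes fell against spleen, namely Cd3d, Cd3g, Lat and Trat1, where 51.7% of all features were called, 28.6% lower and 23.2% higher. In IL10- tumour Treg 3 fell, namely Cd3d, Cd3g and Trat1, where 49.3% of all features were called, 26% lower and 23.3% higher. None rose in either comparison. The groups did not overlap, with tumour lower, for 6 genes in IL10+ and 5 in IL10- Treg, and the same held for 32.5% and 33.1% of all features. The median differences of the 9 genes were -0.77 and -0.79, against -0.11 and -0.04 over all features. Both comparisons share the 3 spleen arrays with the comparison above, so their values stand side by side and are not independent of each other. They also set VERT-X mice against FoxP3-EGFP mice.

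**Figure D1:**
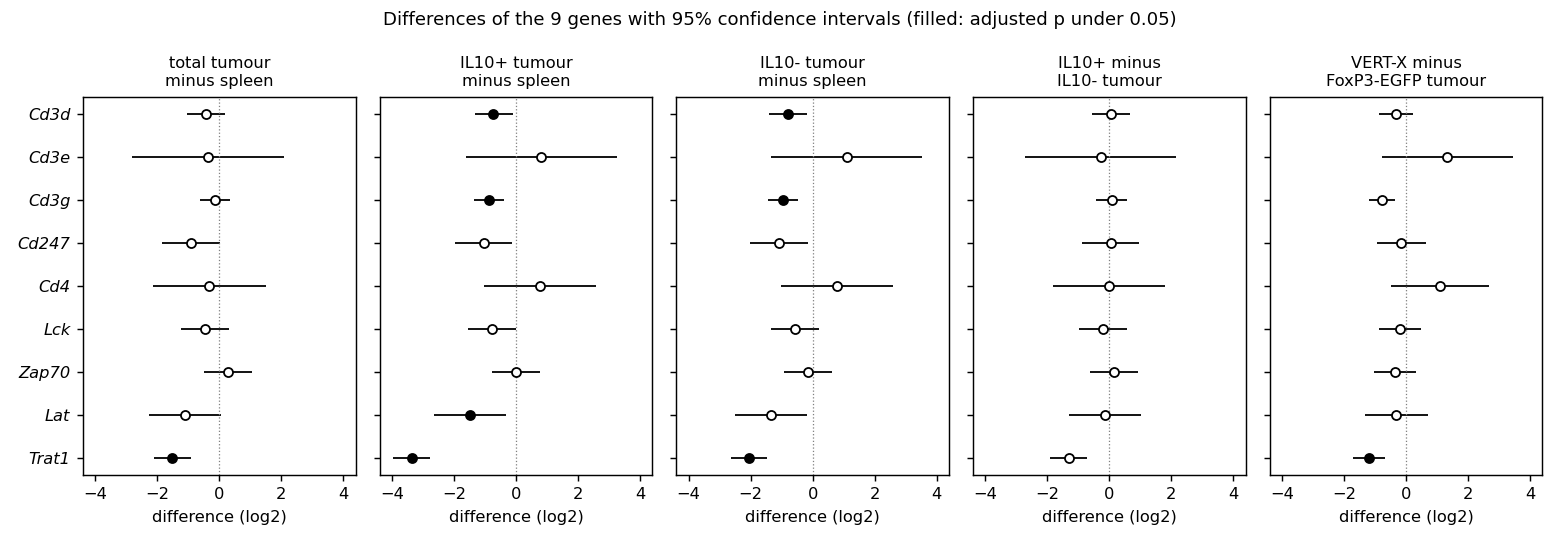
Differences between groups (log2, horizontal axis) of the 9 genes in the 5 comparisons, with 95% confidence intervals from the limma fit; filled points have an adjusted p under 0.05. Trat1 is filled in the 3 comparisons with spleen, at -1.52, -3.37 and -2.06, and in that of VERT-X with FoxP3-EGFP tumour, at -1.19. The intervals of Cd3e and Cd4 are the widest of the 9 genes.

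Trat1 read 2.54, 3.31 and 2.76 on the spleen arrays of replicates 1, 2 and 3. It read 1.58, 0.98 and 1.49 in total tumour Treg, 0.69, 0.65 and 1.10 in the IL10- fraction and -0.60, -0.10 and -0.79 in the IL10+ fraction. No group overlapped spleen, and no IL10+ array reached any array of another group, while total tumour and IL10- Treg overlapped. The brightest probe lies on chromosome 16 at 48654474 to 48654533 (mm8, minus strand). Trat1 was 2.87-fold lower in total tumour than in spleen Treg (-1.52 ± 0.27, SE; adjusted p = 0.00143). It was 4.16-fold lower in IL10- Treg (-2.06; adjusted p = 0.00019) and 10.3-fold lower in IL10+ Treg (-3.37; adjusted p = 9.25e-06). Under 24 alternatives the difference between total tumour and spleen ran from -1.69 to -1.30, and it was called under all 24. The IL10+ difference ran from -3.79 to -2.84 and was also called under all 24, whereas the IL10- difference missed the threshold with slide as a block (-2.34, adjusted p = 0.0754). Within slide 2, total tumour replicate 3 was lower than the mean of the 3 spleen arrays by -1.38 on the log2 scale, and the other 8 genes differed there by -0.85 (Lat) to 0.31 (Zap70). Spleen and VERT-X arrays share no slide.

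A second probe of Trat1, at 48651536 to 48651559, gave the same order of groups. It read 1.10, 1.80 and 1.25 in spleen, -0.27, -0.65 and -0.28 in total tumour, -1.16, -0.56 and -0.66 in IL10- and -2.85, -1.66 and -1.90 in IL10+ Treg. Again every IL10+ array was below every other array. In a fit of all probes its differences from spleen were -1.78, -2.18 and -3.52 in the same order (adjusted p = 0.00169, 0.000408 and 2.07e-05).

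**Figure D2:**
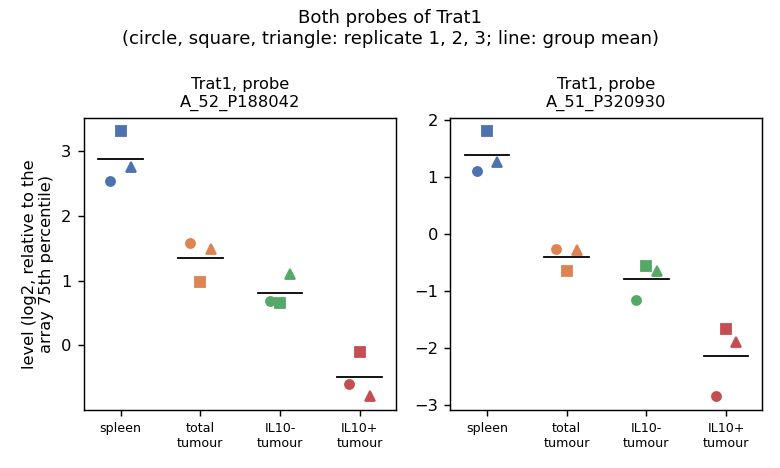
Level of each Trat1 probe (log2, scaled to each array's 75th percentile) on the 12 arrays by group; symbols mark the replicate number and lines the group mean. At both probes spleen arrays are highest and IL10+ arrays lowest, with means of 2.87 and -0.50 at the brighter probe.

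Markers of other cells moved between the same groups. All 8 fibroblast markers were called higher in total tumour than in spleen. Their summed level ran from 6.39 to 6.85 in total tumour, 6.34 to 7.67 in IL10-, 6.75 to 8 in IL10+ and -1.56 to 1.58 in spleen. A summed level is the log2 of the marker levels added on the linear scale. Of 12 macrophage and monocyte markers 10 were called higher, with a summed level of 8.36 to 9.31 in total tumour against 5.41 to 6.67 in spleen. All 8 B cell markers were called lower, at 1.31 to 1.72 against 5.52 to 6.44. The part of these cells in the lower Trat1, Cd3d, Cd3g and Lat levels was not tested.

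Cd3d and Cd3g encode the delta and gamma chains of CD3. Cd3d (probe at 44737083 to 44737314 of chromosome 9, mm8) read 7.70, 7.96 and 7.61 in spleen, 7.46, 7.01 and 7.51 in total tumour, 6.61, 7.23 and 7.08 in IL10- and 6.43, 7.39 and 7.27 in IL10+ Treg. Spleen was above all tumour arrays, and the 3 tumour groups overlapped. Its difference from spleen was -0.43 ± 0.28 (SE) in total tumour (adjusted p = 0.235), -0.79 in IL10- (adjusted p = 0.0377) and -0.73 in IL10+ Treg (adjusted p = 0.0487). Both calls were near the threshold and depended on single arrays. The IL10+ call was made in 3 of 12 fits that each left out 1 array, and was lost without IL10+ replicate 1 (adjusted p = 0.148), IL10- replicate 2 or 3, any total tumour array or any spleen array. The IL10- call was made in 6 of 12, and was lost without IL10- replicate 1 (adjusted p = 0.123) or 3, total tumour replicate 1 or any spleen array.

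Cd3g (probe at 44724628 to 44725212 of chromosome 9, mm8) read 6.50, 6.75 and 6.40 in spleen and 6.47, 6.22 and 6.55 in total tumour Treg. In the VERT-X fractions it read 5.28, 5.89 and 5.62 (IL10-) and 5.31, 6.01 and 5.68 (IL10+). Every VERT-X array was below every FoxP3-EGFP array, whereas spleen and total tumour overlapped. Cd3g was 1.94-fold lower in IL10- (-0.95 ± 0.22; adjusted p = 0.0051) and 1.84-fold lower in IL10+ than in spleen Treg (-0.88 ± 0.22; adjusted p = 0.00713). Leaving out any 1 array kept both calls, with adjusted p up to 0.0206 for IL10- and 0.0277 for IL10+. Slide as a block ended both (adjusted p = 0.108 and 0.126), and normexp background correction ended the IL10- call (-1.01, adjusted p = 0.154).

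Cd247 encodes the zeta chain, which carries most of the tyrosine motifs of the complex. It read 4.29, 4.78 and 4.42 in spleen, 3.84, 3.17 and 3.74 in total tumour, 2.72, 3.94 and 3.59 in IL10- and 2.57, 4.06 and 3.73 in IL10+ Treg. Spleen lay above every tumour array, and the tumour groups overlapped. None of the differences from spleen passed: -0.91 (adjusted p = 0.102), -1.08 (adjusted p = 0.0532) and -1.04 (adjusted p = 0.0584) in total, IL10- and IL10+ Treg. All 4 probes of Cd247 read lower than spleen in the 3 comparisons, but they differed in size and in which differences passed. In the fit of all probes the second brightest differed from spleen by -0.87, -1.27 and -1.17 and passed in the VERT-X fractions (adjusted p = 0.013 and 0.0181). The dim probe named 4930549J05Rik was called in all 3 comparisons, at -1.93 (adjusted p = 0.00368), -2.88 and -2.74. The dimmest probe passed in total tumour (-1.04, adjusted p = 0.0347) but not in IL10+ Treg (-0.88, adjusted p = 0.0543). It was well above background on 2 of 3 arrays in each of these groups. On no IL10- array was it well above background, and there spleen was at least 2.27-fold higher (adjusted p = 0.00229).

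Cd3e, the epsilon chain, and Cd4 split the VERT-X arrays by replicate. Cd3e (brightest probe at 44750166 to 44750225 of chromosome 9, mm8) read 5.60 and 5.40 on IL10- replicates 2 and 3 and 5.78 and 4.70 on IL10+ replicates 2 and 3. On replicate 1 it read 1.97 in IL10- and 1.64 in IL10+. Between these lay total tumour, at 2.97, 2.53 and 3.05, and spleen, at 3.18, 3.37 and 3.12. Cd4 (brightest probe at 124833307 to 124833366 of chromosome 6, mm8) read 2.74 and 2.08 on IL10- replicates 2 and 3 and 2.75 and 2.42 on IL10+ replicates 2 and 3. On replicate 1 it read 0.14 in IL10- and -0.26 in IL10+, beside 0.68, 0.27 and 0.70 in total tumour and 0.52, 1.43 and 0.65 in spleen. Thus 4 VERT-X arrays were above all FoxP3-EGFP arrays and 2 below all of them at both genes. IL10- replicate 1 lies on slide 3 with 3 of the high arrays. With slide as a block the Cd3e difference from spleen was -2.74 in IL10- and -1.28 in IL10+ Treg, and the part of the slides in the split was not tested.

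With such spread no difference of Cd3e or Cd4 passed. Against spleen, Cd3e differed by 0.82 ± 1.10 in IL10+ (adjusted p = 0.557) and by 1.10 ± 1.10 in IL10- Treg (adjusted p = 0.427). Cd4 differed by 0.77 (adjusted p = 0.45) and 0.78 (adjusted p = 0.446). Without both VERT-X arrays of replicate 1, a setting chosen after seeing the data, Cd3e was higher than spleen by 2.02 in IL10+ (adjusted p = 0.00104) and by 2.28 in IL10- Treg (adjusted p = 0.000662), and Cd4 by 1.72 and 1.54 (adjusted p = 0.00274 and 0.00489). In the same setting the count of genes called went from 1 to 4 in total tumour, from 4 to 5 in IL10+ and from 3 to 7 in IL10- Treg. Over all 15532 features the calls went from 6680 to 8227, from 8036 to 8911 and from 7657 to 8353. Cd247 and Lat were then called lower in total tumour (adjusted p = 0.0107 and 0.0127), as was Lck (adjusted p = 0.045), and Cd3d was no longer called in IL10+ Treg (-0.43, adjusted p = 0.0808).

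The second probes did not repeat the pattern in full. The dimmer Cd3e probe, at 44754896 to 44754955, read -1.90, -1.31 and -1.50 in spleen and -2.44, -2.24 and -2.27 in total tumour Treg. It read -4.32, -3.02 and -2.49 in IL10- and -3.64, -2.52 and -3.45 in IL10+ Treg, so no VERT-X array was above the total tumour arrays, and replicate 1 was the lowest of each fraction. In the fit of all probes it was lower than spleen by -1.71 in IL10- (adjusted p = 0.0091) and by -1.64 in IL10+ Treg (adjusted p = 0.0107), the opposite sign to the brightest probe. The dimmer Cd4 probe, at 124831002 to 124831060, read -1.59, 0.19 and -0.10 in IL10- and -0.93, 0.74 and -0.69 in IL10+ Treg, beside -0.51, -0.25 and -0.62 in spleen and -0.56, -0.80 and -0.25 in total tumour. There too replicate 1 was the lowest of each VERT-X fraction, and none of its comparisons passed (adjusted p of at least 0.801). The direction for Cd3e therefore depends on the probe.

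**Figure D3:**
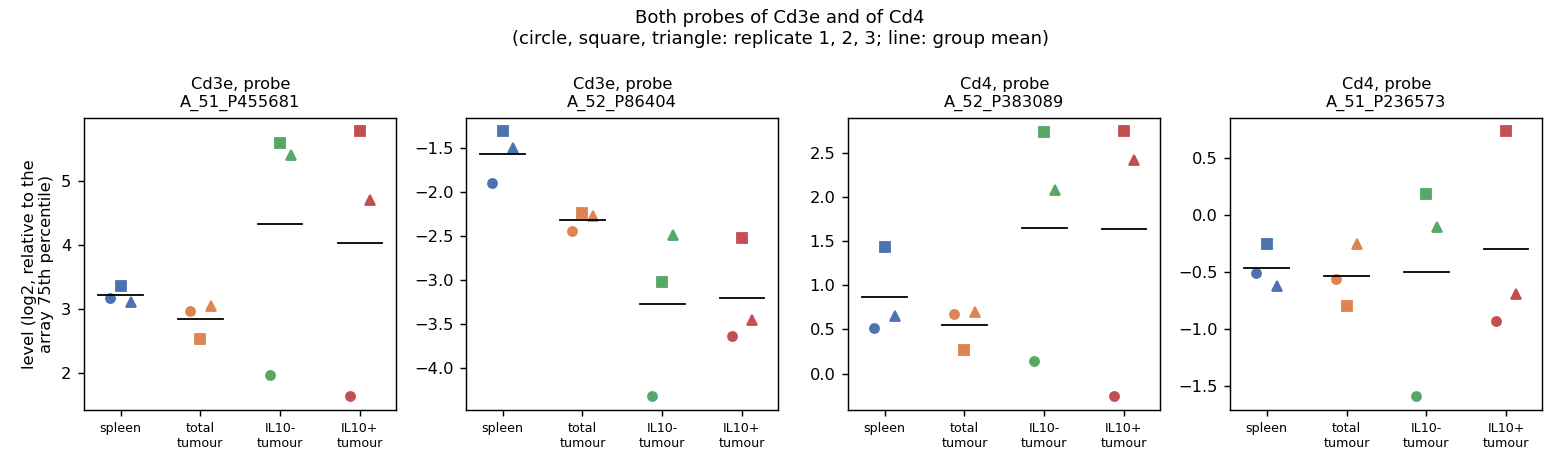
Levels of both probes of Cd3e and of Cd4 (log2, scaled to each array's 75th percentile) on the 12 arrays by group; symbols mark the replicate number and lines the group mean. At the brightest Cd3e and Cd4 probes the squares and triangles of both VERT-X fractions are above all other arrays and their circles lowest. At the dimmer Cd3e probe the circles are lowest too, but no VERT-X array is above the total tumour arrays.

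Replicate 1 of both VERT-X fractions was also lower than the other 4 VERT-X arrays at most other genes of the complex. The mean of the 4 exceeded the mean of the 2 by 3.57 for Cd3e, 2.56 for Cd4, 1.49 for Lat, 1.19 for Cd247, 1.05 for Zap70, 1.02 for Lck, 0.73 for Cd3d and 0.50 for Cd3g. In these 8 genes all 4 arrays were above both replicate 1 arrays, and Trat1, with 0.17, was the exception. Of 15471 features, 22 (0.142%) were lower on both replicate 1 arrays by at least 2, and Cd3e, where the gap was 2.73, is 1 of them. At the other genes of the complex the gap was at most 1.95 (Cd4), so this share does not apply to them. The share of all features with all 4 arrays above both, at any gap, was not counted. Whether the shift is particular to these 8 genes was therefore not tested, and the replicate 1 arrays may be lower at many features. Beside this, the fibroblast marker Dcn was highest on these arrays, at 6.60 and 6.78 against 5.22 to 5.84 on the other tumour arrays. Its part in the lower levels was not tested.

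Lck, the kinase that starts the signal, read 6.54, 6.87 and 6.51 in spleen, 6.31, 5.98 and 6.23 in total tumour, 5.45, 6.55 and 6.23 in IL10- and 5.13, 6.40 and 6.08 in IL10+ Treg. Spleen was above total tumour and IL10+ Treg and overlapped IL10- Treg. Its differences from spleen, -0.47 in total tumour (adjusted p = 0.309), -0.57 in IL10- (adjusted p = 0.201) and -0.77 in IL10+ Treg (adjusted p = 0.0883), did not pass. The Lck probe lies on chromosome 4 at 129050906 to 129050965 (mm8).

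Zap70, the kinase that docks on the phosphorylated chains, had another order of groups. It read 5.29, 5.56 and 5.31 in spleen, 5.86, 5.42 and 5.70 in total tumour, 4.60, 5.60 and 5.47 in IL10- and 4.61, 5.88 and 5.64 in IL10+ Treg. All 4 groups overlapped, and its mean was highest in total tumour Treg. The difference from spleen was 0.27 ± 0.35 in total tumour (95% interval -0.51 to 1.05), -0.16 in IL10- (-0.94 to 0.61) and -0.01 in IL10+ Treg (-0.79 to 0.77). Its probe lies on chromosome 1 at 36725911 to 36725970 (mm8).

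Lat, the adaptor that Zap70 phosphorylates, read 6.30, 7.12 and 6.18 in spleen, 5.53, 5.08 and 5.69 in total tumour, 4.35, 5.74 and 5.47 in IL10- and 3.90, 5.41 and 5.85 in IL10+ Treg. Spleen was above every tumour array, and the tumour groups overlapped. Lat was 2.79-fold lower in IL10+ than in spleen Treg (-1.48 ± 0.52; adjusted p = 0.0368). That call was made in 7 of 12 fits that left out 1 array, and was lost without IL10+ replicate 1 (-0.90, adjusted p = 0.112), total tumour replicate 1 or any spleen array. Lat differed by -1.10 in total tumour (adjusted p = 0.115) and by -1.35 in IL10- Treg (adjusted p = 0.0545), which did not pass. The Lat probe lies on chromosome 7 at 126155353 to 126155412 (mm8).

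**Figure D4:**
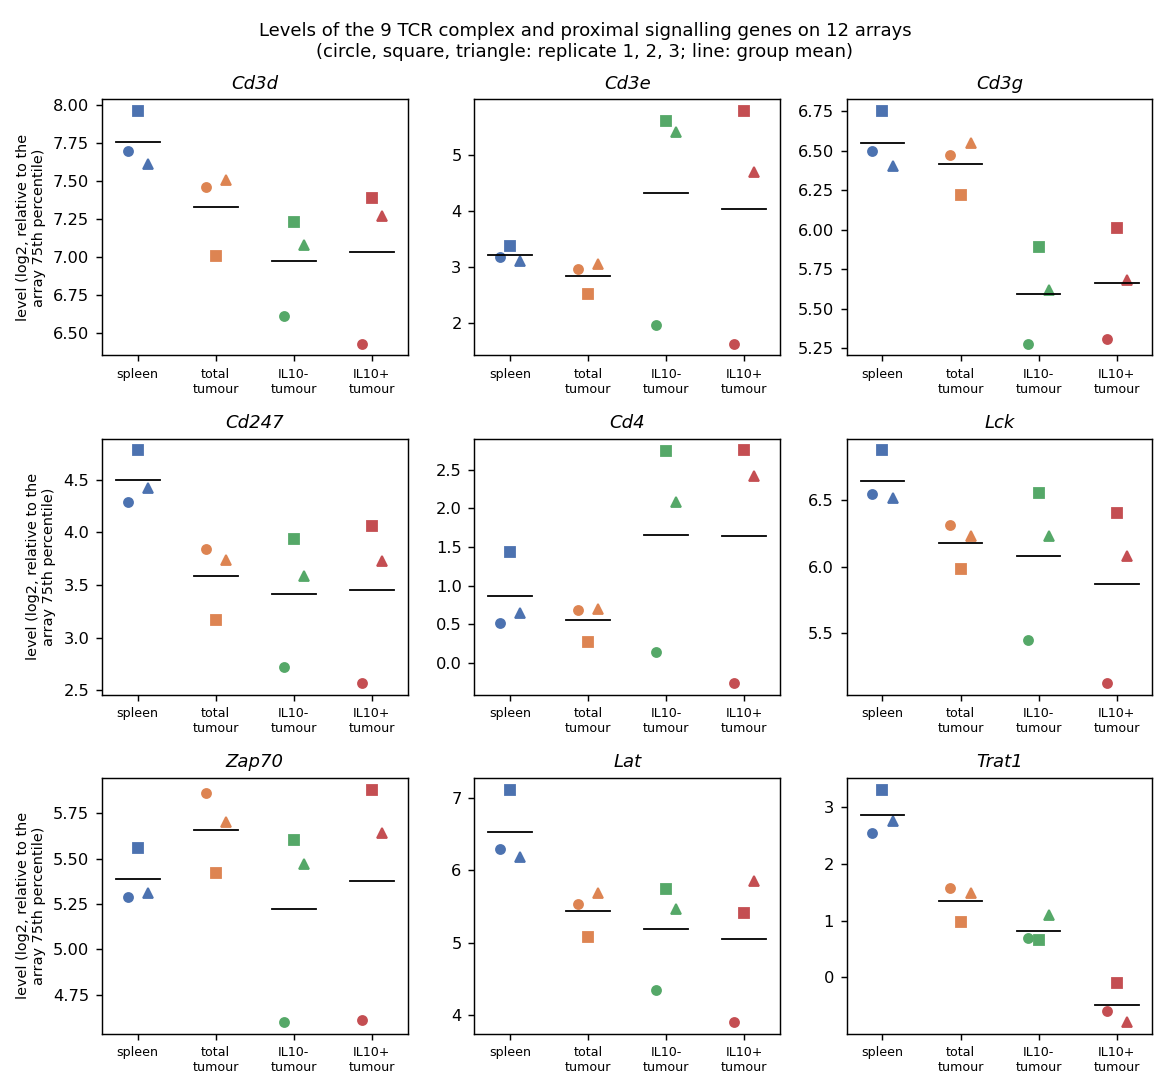
Level of the brightest probe of each of the 9 genes (log2, scaled to each array's 75th percentile; the axis differs by gene) on the 12 arrays by group; symbols mark the replicate number and lines the group mean. Spleen replicate 2 is the highest of the 3 spleen arrays at all 9 genes, and the circles of the VERT-X fractions are lowest in 8 of 9. The shares of all features with either order were not counted.

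Spleen replicate 2 was the highest spleen array at every one of the 9 genes. The share of all features at which it was the highest was not counted. It was the lowest spleen array for every Treg marker but Foxp3, whose probe did not clear the background in spleen. Ikzf2, for example, read -1.28 on it against 3.07 and 3.23 on the other spleen arrays. Without spleen replicate 2 the difference of total tumour from spleen was -1.30 for Trat1 (adjusted p = 0.0053), -0.81 for Lat and -0.77 for Cd247. In the IL10+ comparison without it, Trat1 (-3.15, adjusted p = 4.24e-05) and Cd3g (-0.78, adjusted p = 0.0277) were called. Cd3d (-0.63, adjusted p = 0.135) and Lat (-1.18, adjusted p = 0.123) were not, so the count went from 4 to 2. Over all features the calls went from 8036 to 7063. The count in IL10+ Treg was also 2 without IL10+ replicate 1, total tumour replicate 1, spleen replicate 1 or spleen replicate 3. The calls over all features were then 7998, 7601, 7060 and 6890 in this order. In IL10- Treg it was 5 without IL10+ replicate 1 or IL10- replicate 2, when Cd247 (adjusted p = 0.019 and 0.0374) and Lat (adjusted p = 0.0171 and 0.0472) passed. Over all features the IL10- calls rose from 7657 to 8312 in the first of these settings and fell to 6824 in the second.

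Between IL10+ and IL10- tumour Treg, the comparison of the Treg that express interleukin-10 with those that do not, none of the 9 genes passed limma's test, and 1 (Trat1) had an unadjusted p under 0.05. Over all features 0.0515% were called, 0.0451% lower and 0.00644% higher in IL10+ Treg. How many of all features had an unadjusted p under 0.05 was not counted. Trat1 was 2.48-fold lower in IL10+ Treg (-1.31 ± 0.27; unadjusted p = 0.000622, adjusted p = 0.279), with all 3 IL10+ arrays below all 3 IL10- arrays. Groups did not overlap, with IL10+ lower, for 5.71% of all features. The adjusted p ran from 0.135, without spleen replicate 2, to 1 with arrays scaled to their median, over the alternatives, and the difference from -1.51 to -0.82. Within slide 3, IL10+ replicate 2 was lower than the mean of the 3 IL10- arrays by -0.92, and the other 8 genes were higher on it by 0.23 (Lat) to 1.45 (Cd3e). Over all arrays the other 8 genes differed by -0.28 (Cd3e) to 0.15 (Zap70), and all their groups overlapped. The 95% intervals were narrowest for Cd3g (-0.42 to 0.56) and widest for Cd3e (-2.73 to 2.16), so at Cd3e a several-fold difference in either direction lies inside the interval.

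VERT-X and FoxP3-EGFP tumour Treg, which differ in reporter strain and in gate, were compared as the mean of both IL10 fractions against total tumour Treg. Trat1 was called lower, where 0.876% of all features were called, 0.612% lower and 0.264% higher. Its difference was -1.19 ± 0.23 at an adjusted p of 0.05 to 2 digits, just under the threshold, and the groups overlapped through IL10- replicate 3. Within slide 1, IL10+ replicate 1 was lower than the mean of total tumour replicates 1 and 2 by -1.88. Without 1 array it was called only without IL10+ replicate 1 (adjusted p = 0.0332) or spleen replicate 2 (adjusted p = 0.0376), and in the other 10 such fits the adjusted p was up to 0.268. Cd3g was lower by -0.78 without passing (adjusted p = 0.0756), although its groups did not overlap, as they did not, with VERT-X lower, for 8.21% of all features. Without IL10+ replicate 1 Cd3g passed (-0.69, adjusted p = 0.0486), where the calls over all features went from 136 to 1058. Cd3e differed by 1.33 ± 0.95 (adjusted p = 0.472) and Cd4 by 1.10 ± 0.70 (adjusted p = 0.423), for the split of the VERT-X arrays described above. Without both VERT-X replicate 1 arrays, 4 genes were called: Cd3e (2.52) and Cd4 (1.95) higher, Cd3g (-0.61) and Trat1 (-1.14) lower. In that setting the calls over all 15532 features also rose, from 136 to 2500.

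Across the 12 arrays the levels of the 9 genes correlated as follows, given here as descriptions of arrays that share groups and scaling. Cd3d, Cd247, Lck and Lat ran together, with Pearson r from 0.93 to 0.96 in every pair. Cd3e and Cd4 ran together (r = 0.97) and apart from Cd3g (r = -0.02 and -0.03). Cd3g was nearest to Cd3d (r = 0.89), and Zap70 gave r from 0.61 to 0.75 with every gene but Trat1 (r = 0.16). Trat1 was nearest to Cd3g (r = 0.78), gave r of 0.72 with Cd3d, 0.70 with Lat, 0.67 with Cd247 and 0.66 with Lck, and was lower with Cd3e (r = -0.19) and Cd4 (r = -0.24).

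The mean of Cd3d, Cd3e and Cd3g over the 12 arrays was most alike to Selplg (r = 0.99), Lfng (r = 0.98), Klhl25 (r = 0.98), H2-K2 (r = 0.98) and Zfp513 (r = 0.97). Selplg encodes the selectin ligand PSGL-1 and Lfng a glycosyltransferase that modifies Notch. H2-K2 belongs to the MHC class I family, whose near-identical members may share this probe. All 5 were lowest on the replicate 1 arrays of both VERT-X fractions, and Lfng read 0.72 and 0.40 there against 2.56 to 3.08 on the other VERT-X arrays. Because Cd3e spans the widest range of the 3 genes, it weighs most in this mean.

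Other genes of the pathway were followed in 7 lists, taken by role and chosen with earlier results of these data known. Among the TCR chains, 4 of 12 symbols were tested. In total tumour Treg 3 of 4 fell and none rose, with a median difference of -2.46, beside 22.4% of all features called lower. Tcrb-J, named for the joining region of the beta chain, was lower by -2.23 on the log2 scale (adjusted p = 0.00191), Tcrg by -2.68 (adjusted p = 0.0201) and Tcrg-C, above background on 1 of 3 total tumour arrays, by -3.63 (adjusted p = 0.00236). Tcrg and Tcrg-C name the gamma chain, which CD4 T cells do not use in their receptor, and Tcrg read 2.95 on spleen replicate 2 against 0.43 and -0.22 on the other spleen arrays. Tcra, the alpha chain that Treg do use, differed by 0.13 (adjusted p = 0.728). In IL10+ Treg 3 of 4 fell and in IL10- Treg all 4. Tcrb-J fell by 3.75 in IL10+ Treg (adjusted p = 6.22e-05), and Tcrg-C was not well above background on any IL10- array, where spleen was at least 10.7-fold higher (adjusted p = 0.000451). TCR chain probes detect rearranged families and may share targets. Without spleen replicate 2, the count in IL10- Treg went from 4 to 2. With normexp the counts were 1 in total tumour (median -1.61), 1 in IL10- and 2 in IL10+ Treg. Calls over all features fell as well. With normexp they went from 6680 to 1937 in total tumour, 7657 to 2342 in IL10- and 8036 to 5290 in IL10+ Treg. Without spleen replicate 2 they were 5566, 6724 and 7063. These totals apply to the lists below too.

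Of 8 Src family kinases and their switches, 3 fell and 1 rose in total tumour Treg, with a median of -0.52, beside 22.4% of all features called lower and 20.6% higher. Txk, a Tec family kinase, fell by 1.79 ± 0.29 (adjusted p = 0.00095), and was lower by -2.30 in IL10- and -2.23 in IL10+ Treg (adjusted p = 0.00017 and 0.000183). Csk, which holds Lck inactive, fell by 0.98 ± 0.32 (adjusted p = 0.0302). Sh2d2a, an adaptor that binds Lck, rose by 1.32 ± 0.34 (adjusted p = 0.0103). In IL10- Treg 6 fell and 1 rose, and in IL10+ Treg 6 fell and none rose, where 26% and 28.6% of all features were called lower. Without spleen replicate 2 the falls were 1 of 8 in total tumour and 3 of 8 in IL10- Treg, and with normexp 1 and 2.

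Of 7 accessory receptors, 2 fell and none rose in total tumour, both of them chains of CD8, the coreceptor of cytotoxic T cells. Among all features 22.4% were called lower in total tumour, 26% in IL10- and 28.6% in IL10+ Treg. Cd8b1 fell by 1.16 ± 0.29 (adjusted p = 0.00928) and Cd8a fell by 1.81 ± 0.55 (adjusted p = 0.0242), although all sorts required CD4. Cd27, a costimulatory receptor, differed by -0.60 (adjusted p = 0.162). In IL10- Treg Cd8b1 (-1.09, adjusted p = 0.0104) and Cd27 (-1.15, adjusted p = 0.0146) fell, and in IL10+ Treg Cd8b1 did (-1.33, adjusted p = 0.0036). The summed level of 9 markers of CD8 T cells and NK cells, which include Cd8a and Cd8b1, ran from 6.70 to 7.04 in total tumour and 4.72 to 6.02 in spleen, although 4 of the 9 were called lower in total tumour and 1 higher. The brightest marker weighs most in such a sum. In total tumour that was Nkg7, at 6.55 to 6.91 against 3.48 to 5.09 in spleen. With normexp 1 of the 7 accessory receptors fell in total tumour, 1 in IL10- and 6 in IL10+ Treg. The median difference was -0.16 in total tumour, -0.77 in IL10- and -0.65 in IL10+ Treg.

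Downstream of Lat, 5 of 16 genes of the LAT signalosome fell in total tumour Treg and none rose (median -0.55), beside 22.4% of all features called lower. In IL10- Treg 9 and in IL10+ Treg 13 of the 16 fell, and again none rose, with medians of -0.84 and -0.97, beside 26% and 28.6% of all features. Tespa1, a regulator of TCR signalling in thymocytes, fell by 2.61 ± 0.41 in total tumour Treg (adjusted p = 0.0008). Skap1, an adaptor that links the TCR to integrins, fell by 1.23 ± 0.20 (adjusted p = 0.000946), and was lower by -1.72 in IL10- and -2.03 in IL10+ Treg (adjusted p = 0.000102 and 3.49e-05). Nck1, an adaptor to the actin cytoskeleton, fell by 0.56 ± 0.12 (adjusted p = 0.00493). The count in total tumour was 2 with normexp background correction, 3 without spleen replicate 2 and 11 without both VERT-X replicate 1 arrays. In IL10- Treg it was 5 with normexp and 6 without spleen replicate 2, and in IL10+ Treg 13 and 10. Over all features the total tumour calls went from 6680 to 1937 with normexp, 5566 without spleen replicate 2 and 8227 without both VERT-X arrays. Tespa1 was also lower in both fractions, by -2.23 in IL10- and -4.15 in IL10+ Treg (adjusted p = 0.00151 and 3.54e-05).

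Of 15 negative regulators, 5 fell and 2 rose in total tumour Treg, 5 fell in IL10- and 8 in IL10+ Treg, with medians of -0.32, -0.64 and -0.70. The shares of all features called lower were 22.4%, 26% and 28.6%, and 20.6% were called higher in total tumour. Dgka, a kinase that removes the second messenger diacylglycerol, fell by 1.65 ± 0.26 in total tumour (adjusted p = 0.000759) and was lower by -2.64 in IL10- (adjusted p = 3.75e-05) and by -2.62 in IL10+ Treg (adjusted p = 3.39e-05). Lax1, a transmembrane adaptor related in build to Lat, fell by 1.99 ± 0.40 (adjusted p = 0.00295), and Sit1, another such adaptor, fell by 0.91 ± 0.27 (adjusted p = 0.0217). The genes that rose were Sla, an adaptor that damps TCR signalling (1.05, adjusted p = 0.0479), and Ubash3b, a phosphatase (0.86, adjusted p = 0.0329). Without spleen replicate 2, total tumour had 2 falls and no rise, and IL10- Treg had 3 falls, and with normexp these were 4 falls and no rise, and 2 falls.

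Distal signalling moved in both directions. Of 16 genes 4 fell and 2 rose in total tumour, 7 fell and 2 rose in IL10-, and 6 fell and 3 rose in IL10+ Treg. Among all features 22.4%, 26% and 28.6% were called lower and 20.6%, 23.3% and 23.2% higher. With normexp 3 of the genes fell and 1 rose, 4 fell and 1 rose, and 9 fell and 1 rose. Prkcq, the protein kinase C of the T cell synapse, fell by 2.72 ± 0.42 in total tumour Treg (adjusted p = 0.000711) and was lower by -2.81 in IL10- Treg (adjusted p = 0.000446). Itpr1, a calcium channel of the endoplasmic reticulum, fell by 1.10 ± 0.12 in IL10+ Treg (adjusted p = 6.13e-05). Nfatc2, a transcription factor activated by calcium, rose by 3.83 ± 0.61 (adjusted p = 0.000855) from spleen levels that were well above background on 2 of 3 arrays.

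Of 10 genes that TCR signals are known to induce, 3 rose and 2 fell in total tumour Treg, with a median of 0.89. Nr4a2, an orphan nuclear receptor, rose by 2.27 ± 0.41 (adjusted p = 0.00159) and Tnfrsf9, the costimulatory receptor 4-1BB, by 3.96 ± 0.73 (adjusted p = 0.00198). On spleen replicate 2 Tnfrsf9 read -0.39, against 3.06 and 2.81 on the other spleen arrays. Egr2, a transcription factor that restrains T cell responses, fell by 1.57 ± 0.30 (adjusted p = 0.00243). Egr3, its relative, was not well above background on any IL10- array, where spleen was at least 5.25-fold higher (adjusted p = 8.72e-05). In IL10- Treg 3 rose and 2 fell, and in IL10+ Treg 2 rose and 2 fell. The other 5, 5 and 6 genes of the total, IL10- and IL10+ comparisons did not pass. Among all features 20.6%, 23.3% and 23.2% were called higher there, and 22.4%, 26% and 28.6% lower. In total tumour 2 rose and 2 fell without spleen replicate 2 (median 0.49), 2 rose and 1 fell with normexp, and 5 rose and 2 fell without both VERT-X replicate 1 arrays.

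Between IL10+ and IL10- Treg none of the 76 genes tested from the 7 lists passed limma's test, where 0.0515% of all features were called. An unadjusted p under 0.05 was found for 7 of the 76, among them Tespa1 (-1.91, adjusted p = 0.333). The share of all features under that cut was not counted, so the 7 cannot be set against it. Between VERT-X and FoxP3-EGFP tumour Treg 2 of the 76 genes fell, beside 0.612% of all features. With normexp none did, where 3 of all 15532 features were called. Malt1, a paracaspase of the NF-kB pathway, was lower by -0.99 ± 0.14 (adjusted p = 0.0307), and Ptpn22, a phosphatase that acts on Lck and Zap70, by -0.82 ± 0.16 (adjusted p = 0.0479). Malt1 read 0.65 to 0.81 in IL10-, 1.08 to 1.62 in IL10+ and 1.85 to 2.22 in total tumour Treg, with no overlap among these groups. Against spleen, at 1.5 to 1.54, it rose in total tumour (0.55, adjusted p = 0.024) and fell in IL10- Treg (-0.78, adjusted p = 0.00351), while IL10+ Treg differed by -0.10 (adjusted p = 0.637). Ptpn22 read 2.90 to 3.39, 3.28 to 3.79 and 4.07 to 4.32, and there the IL10 fractions overlapped.

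**Figure D5:**
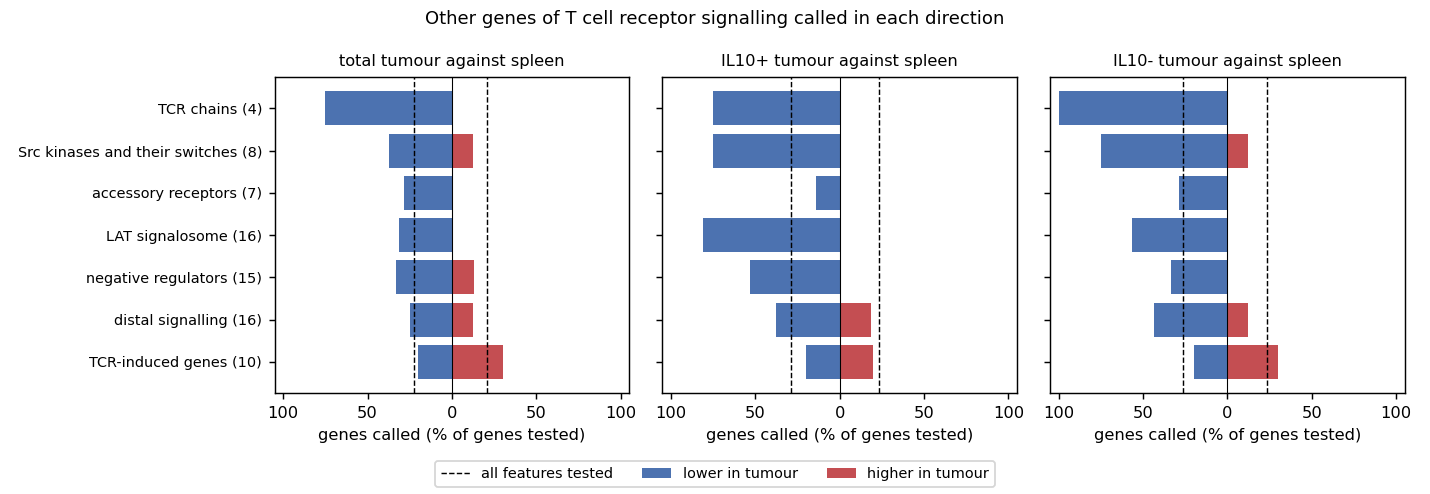
Share of the tested genes of each of 7 pathway lists (list size in brackets) called lower (blue, to the left) and higher (red, to the right) in 3 tumour Treg groups against spleen; dashed lines are the shares among all features tested (22.4% lower and 20.6% higher for total tumour). In the LAT signalosome 5, 13 and 9 of 16 genes are lower in total, IL10+ and IL10- Treg and none higher.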

How the data were processed

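Each of the 12 one-colour Agilent arrays was deposited as scanner output; the intensity used is the processed signal, from which Feature Extraction 9.5.3.1 had subtracted background and spatial trend, per the file headers. The labels name biotin-labelled cRNA. A table deposited by the authors holds log10 values with equal medians, by a method not given in the sources used here, and tracked the log10 intensity (r from 0.995 to 1). It served as an alternative. Probe positions are those of mm8, per the file headers.

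Outlier spots were left out, 43379 spots were averaged to 41174 probes, and log2 values were centred on each array's 75th percentile. Of these probes, 23374 were named through their accession, 6733 by symbol, 2919 by an older name, 1845 as in the file, and 6303 had no name. Genes were represented by their brightest probe. Features well above background on at least 3 arrays (15532) were fitted with 4 group means in limma 3.58.1 (lmFit and eBayes, R 4.3.3), and p-values of 5 comparisons were each adjusted by Benjamini-Hochberg over all features. A value was called at an adjusted p under 0.05. An "at least" fold sets a group above background against the higher of the lowest detected level and the dim probe's own level, per array. The fit was tested on simulated data. Alternatives changed the background correction, scaling, filter, probe rule, weights, blocks and arrays.

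The 9 genes, the lists, the motifs and the tests were chosen with earlier results of these data known. All 9 genes are named in each comparison. From each pathway list the 3 genes with the smallest p in total tumour against spleen were named, plus the gene with the smallest p in each other comparison where it was called. A gene that this rule names in the distal list is not reported here. Tcra, Sla and Ubash3b fall outside that rule and were chosen after their values were seen. The number of arrays limits the precision, and p-values measure the spread between arrays, since nothing says whether the experiments used separate animals.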

Additional observations from a re-analysis of the deposited data

How the results depend on the processing

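Over 24 alternatives, 12 of which left out 1 array, Trat1 kept its direction in the 5 comparisons. The count of the 9 genes called was 1 in total tumour, 4 in IL10+ and 3 in IL10- Treg against spleen, 0 between IL10 fractions and 1 between reporter strains. In total tumour it was 2 with normexp, the deposited table or the mean of all probes, 3 with array weights and 4 with only the groups compared or without both VERT-X arrays of replicate 1. In IL10+ Treg it was 7 with normexp, 2 with no filter or only the groups compared, and 1 with slide as a block. In IL10- Treg it was 7 with array weights or without both VERT-X arrays, 5 with quantile normalization, the deposited table, a filter of 6 arrays, the replicate block or median scaling, 2 with no filter and 0 with slide as a block. Between strains it was 0 with normexp, quantile normalization, the deposited table, no filter, the mean of all probes, only the groups compared, slide as a block, the replicate block or median scaling, and 4 with array weights or without both VERT-X arrays. Leaving out 1 array gave 1 to 3, 2 to 6, 2 to 5, 0 to 0 and 0 to 2 calls in the 5 comparisons in this order. Calls over all 15532 features moved too. In total tumour they went from 6680 to 1937 with normexp, 9610 with array weights and 8372 with only the groups compared. In IL10+ Treg they went from 8036 to 5290 with normexp, 6288 with only the groups compared and 2510 with slide as a block. In IL10- Treg they went from 7657 to 10025 with array weights and 1208 with slide as a block. Between strains they went from 136 to 3 with normexp and with slide as a block.

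Differences that changed sign had not been called. Against spleen in IL10+ Treg these were Cd3e (-0.45) and Cd4 (-0.33) with normexp, Cd3e (-0.41) with the mean of all probes, Zap70 with array weights (0.28) or without both VERT-X arrays (0.37), and Cd3e (-1.28) and Cd4 (-0.90) with slide as a block. In IL10- Treg they were Cd3e (-0.30) with the mean of all probes, Zap70 with array weights (0.13) or without both VERT-X arrays (0.15), and Cd3e (-2.74) and Cd4 (-2) with slide as a block. Between the IL10 fractions they were, with normexp, Cd3d (-1.13), Cd3g (-1.12), Cd247 (-1.10) and Zap70 (-1.06). Cd4 was 0.03 with quantile normalization and with the deposited table, 0.10 with the mean of all probes, 0.07 with array weights, 1.10 with slide as a block and 0.18 without both VERT-X arrays. With slide as a block Cd3e was 1.45, Lck 0.32 and Lat 0.23, and without both VERT-X arrays Lat was 0.03. Between strains they were Cd247 with array weights (0.08), Cd3e (-1.84) and Cd4 (-1.28) with slide as a block, and Cd247 (0.25), Lck (0.14) and Lat (0.19) without both VERT-X arrays. Leaving out 1 array turned the sign of these differences. Between the IL10 fractions they ran from -0.12 to 0.36 (Cd3d), -1.46 to 0.92 (Cd3e), -0.10 to 0.25 (Cd3g), -0.31 to 0.48 (Cd247), -0.77 to 0.93 (Cd4), -0.52 to 0.16 (Lck), -0.16 to 0.54 (Zap70) and -0.55 to 0.45 (Lat). Against spleen Cd3e in IL10+ Treg ran from -0.05 to 2.02, Zap70 from -0.26 to 0.37 in IL10+ and from -0.35 to 0.15 in IL10- Treg, and between strains Cd247 from -0.36 to 0.07. The cause of these changes was not tested.

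The setting without both VERT-X arrays and median scaling were added after seeing the data. Median scaling moved the median of all features to -0.53 in IL10+ and -0.45 in IL10- Treg against spleen and to -0.41 between strains. No filter moved it to -0.37 in total tumour and to 0.28 between strains. Normexp raised the 75th percentile of the signal by the largest ratios on IL10+ replicates 3 (from 98.87 to 579.8) and 2 (from 306.2 to 1212) and total tumour replicate 3 (from 396.1 to 922.2). Features called between strains numbered 136, but 2883 with array weights and 12 with the replicate block, and 8 between IL10 fractions, but 0 with only the groups compared. The replicate block is no established pairing, and it gave 1, 5, 5, 0 and 0 calls among the 9 genes. Without a block, each group's mean was subtracted per feature and the remainders were correlated between arrays. Same-numbered IL10 fractions then gave r of 0.41, 0.43 and -0.24, and IL10- replicate 3 was nearest to IL10+ replicate 2 (0.30). The levels themselves correlated at 0.972, 0.978 and 0.952 in the same-numbered pairs. The second Cd3e probe and the 4930549J05Rik and dimmest probes of Cd247 were dim, which limits what they can show. The second brightest Cd247 probe was well above background on all 12 arrays.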
